A study of Mus musculus with 12 samples.

Results

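The genes described here are 46 members of the antioxidant system governed by the transcription factor NRF2 (gene Nfe2l2) and of the glutathione pathway, taken by name from 24421 genes measured by RNA sequencing in 12 mouse prostate libraries. All 46 were in the files, and 45 passed the filter on low values used for testing, an average of 0.5 FPKM or more across all libraries. FPKM stands for fragments per kilobase of transcript, scaled to library size, and is already divided by gene length. The member that did not pass was Gstm3, with 0 to 0.117 FPKM in the 12 libraries. The names follow known pathway roles and no threshold on measured values.

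The libraries fell into 7 groups. One library came from a prostate tumor of a TRAMP mouse at 24 weeks of age, listed with 0% PEITC. The tumor's lobe of origin is not known. TRAMP mice on a diet with 0.05% (w/w) phenethyl isothiocyanate (PEITC) gave 2 libraries at 24 weeks and 2 at 16 weeks, and TRAMP mice on the AIN93M control diet gave 2 at each of these ages. From wild type C57BL/6 mice, all on control diet, there were 2 libraries at 24 weeks and 1 at 16 weeks. TRAMP mice, here on a C57BL/6 background, express the SV40 large T antigen from the probasin promoter, which is active in androgen-responsive prostate epithelium, and no wild type mice on PEITC were among these libraries. Apart from the tumor, RNA was total RNA from ventral and dorsolateral prostate together. Nothing in the labels ties a library to a separate animal, so p-values measure only the spread between these samples, which may be technical.

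NRF2 is held in the cytoplasm by KEAP1, which marks it for degradation. Electrophiles such as isothiocyanates react with KEAP1 cysteines, and NRF2 then accumulates, pairs with small MAF proteins and binds antioxidant response elements in its target genes. Those targets make glutathione, recycle oxidized thioredoxin and glutathione, conjugate or reduce reactive compounds, export the conjugates and supply NADPH.

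The files' smallest steps, read in single-exon genes of known length, gave whole fragments (within 0.1) for 93.8% to 96.5% of values, which puts the scaling totals between 20300000 and 32000000 fragments per library (rounded). Libraries of 1 group correlated at 0.987 to 0.991 over all tested genes on the log2(FPKM + 1) scale. Those of different groups correlated at 0.889 to 0.994, so some pairs across groups were more alike than any within a group. The 16-week wild type library stood apart: the 5 listed seminal vesicle secretory genes summed to 6479 FPKM there, against at most 7.17 in any other library, and the 6 skeletal muscle genes to 85.3 FPKM, against 16.4 to 35.6. It is the only wild type library of 16 weeks, so the 16-week calls were also counted against the 24-week wild type libraries. In the second PEITC library of 24 weeks (replicate 1), 5 neuroendocrine genes summed to 32.0 FPKM, against 0.664 to 4.09 in the other 11. The prostate secretory list (8 genes, among them Pbsn and Sbp) summed to 2095 FPKM in the tumor, 3154 to 6969 in the 8 TRAMP prostates and 23650 to 29448 in the 3 wild type libraries. The 7 luminal keratin and adhesion genes summed to 3712, to between 2740 and 3088, and to between 2701 and 3109 FPKM in the same order of tissues. Most of the secretory sum in wild type was Sbp (14197 to 16412 FPKM) and Spink1 (5389 to 5620 FPKM). Tgm4, also on that list, overlapped between the 8 TRAMP prostates (2.93 to 17.1 FPKM) and wild type (3.90 to 468 FPKM). The highest secretory sum was in the 16-week wild type library, where Pate4 had 1334 FPKM and Tgm4 468 FPKM.

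Promoter sequence was read for 38 members from the RefSeq windows of mouse assembly GRCm38.p6 (the mm10 assembly), each running from 250 bases before to 50 bases after an annotated start. The letters TGACNNNGC, a core of the antioxidant response element in which N is any base, were searched on both strands. They were present in 13 of 38 members (34.2%), against 3781 of all 27025 genes with a window (14.0%). The letters TGANTCA, the site of AP-1 proteins, can overlap that core and were present in 5 of 38 members (13.2%), against 8.97% of all genes. Members with the core were Nfe2l2, Gclm, Txnrd1, Srxn1, Prdx1, Gsta3, Gstm5, Gstm7, Sod1, G6pdx, Pgd, Me1 and Abcc4. A match is a run of letters and not a binding site. The 4 stretches below, from 250 bases before to 20 bases after the start, are shown because they belong to members that the comparisons turn on: Gsta3 and Gstm5 were lower in TRAMP prostate, Me1 was higher in 24-week TRAMP prostate and in the tumor, and Prdx1 was higher in the tumor. Capitals mark the match to TGACNNNGC, which in Prdx1 lies on the opposite strand, and in Me1 and Prdx1 it overlaps TGANTCA. The stretches lie at chr1:21240335-21240604 (plus strand, Gsta3), chr3:107895604-107895873 (plus strand, Gstm5), chr9:86695895-86696164 (minus strand, Me1) and chr4:116685349-116685618 (plus strand, Prdx1).
Gsta3: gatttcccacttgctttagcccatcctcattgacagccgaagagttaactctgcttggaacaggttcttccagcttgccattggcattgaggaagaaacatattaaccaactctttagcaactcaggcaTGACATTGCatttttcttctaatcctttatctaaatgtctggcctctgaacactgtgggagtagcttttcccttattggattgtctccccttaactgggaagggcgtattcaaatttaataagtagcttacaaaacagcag
Gstm5: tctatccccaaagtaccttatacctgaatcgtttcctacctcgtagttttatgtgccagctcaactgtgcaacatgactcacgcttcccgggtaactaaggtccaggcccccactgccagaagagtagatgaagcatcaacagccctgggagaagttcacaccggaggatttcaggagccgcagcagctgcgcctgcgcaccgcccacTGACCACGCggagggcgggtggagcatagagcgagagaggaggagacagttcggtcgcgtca
Me1: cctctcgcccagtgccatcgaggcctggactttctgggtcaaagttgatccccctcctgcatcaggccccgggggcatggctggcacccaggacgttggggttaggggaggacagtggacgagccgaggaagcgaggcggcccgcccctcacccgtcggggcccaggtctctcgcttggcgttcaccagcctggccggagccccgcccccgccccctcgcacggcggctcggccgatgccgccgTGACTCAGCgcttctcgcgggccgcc
Prdx1: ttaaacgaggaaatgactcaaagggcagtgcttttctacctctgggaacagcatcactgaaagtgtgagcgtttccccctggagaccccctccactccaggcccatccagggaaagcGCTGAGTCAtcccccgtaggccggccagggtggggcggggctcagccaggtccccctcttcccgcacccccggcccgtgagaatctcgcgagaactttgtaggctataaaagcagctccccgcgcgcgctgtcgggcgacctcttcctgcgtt

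The match began 121 bases before the annotated start in Gsta3, 42 before it in Gstm5, 133 before it in Prdx1 and 6 before it in Me1.

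Levels per length differed widely between members. Prdx6, a peroxiredoxin that uses glutathione, had the highest mean over the 12 libraries (458 FPKM), followed by the superoxide dismutase Sod1 (385), the ferritin chains Ftl1 (345) and Fth1 (334) and the pentose phosphate enzyme Taldo1 (291). Nqo1, the quinone reductase most often used as a readout of NRF2 activity, was near the lower limit with a mean of 0.512 FPKM. Its values were 0.721 FPKM in the tumor, 0.214 and 0.544 in 24-week PEITC, 0.262 and 0.765 in 24-week TRAMP control, 0.302 and 0.378 in 16-week PEITC, 0.544 and 0.248 in 16-week TRAMP control, 0.710 and 0.435 in 24-week wild type and 1.02 in 16-week wild type prostate. These are 10 to 36 fragments per library, so counting error alone is wide: 10 fragments have an exact 95% Poisson interval of 4.80 to 18.4. Slc7a11, the cystine transporter, was also low at 0.403 to 0.791 FPKM (87 to 164 fragments). Together the members made up 0.996% of all FPKM in the tumor, 0.926% to 1.01% in the 8 TRAMP prostates and 1.06% to 1.15% in wild type prostate.

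**Figure D1:**
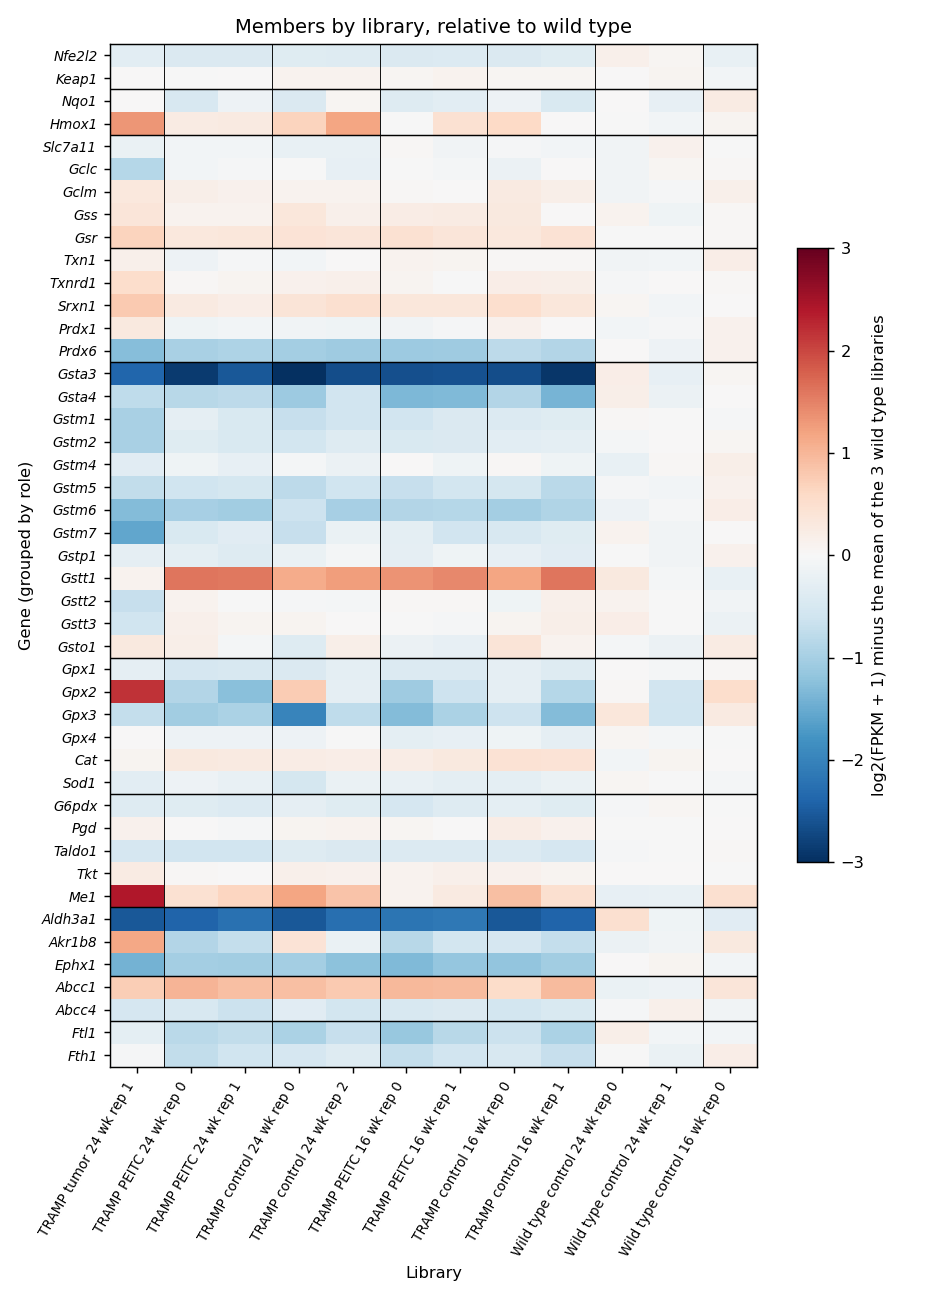
Each row is 1 of the 45 tested members, grouped by role, and each column 1 library; color gives log2(FPKM + 1) minus the mean of the 3 wild type libraries. The rows of Gsta3, Aldh3a1, Ephx1 and Prdx6 are low in the tumor and all 8 TRAMP prostates, the row of Gstt1 is high in the 8 TRAMP prostates only, and columns of PEITC and control diet look alike.

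In the heat map of members by library the clearest bands follow genotype. The diet comparison is given first, since PEITC is an electrophile of the kind that activates NRF2.

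PEITC moved no member past the threshold. With limma on log2(FPKM + 1) and Benjamini-Hochberg adjustment over 13375 genes, 0 of 45 members had an adjusted p under 0.05 at 24 weeks (background 0%), 0 at 16 weeks (background 0.00748%, 1 gene), 0 for the mean of both ages (background 0%) and 0 for the difference between the diet effects at the 2 ages (background 0.00748%, 1 gene). At an unadjusted p under 0.05 (limma) the counts were 9 of 45 members at 24 weeks, 7 at 16 weeks, 5 for the mean and 8 for the difference. Of all 13375 genes, 1267, 1347, 889 and 1720 did so in the same order. The share was larger among the members than among all genes each time, a difference that was not tested. The median log2 difference, PEITC minus control, was -0.05 at 24 weeks and -0.06 at 16 weeks over the members, against 0.01 and 0.01 over all genes. Missing the threshold does not show that PEITC had no effect. The intervals below give the sizes these libraries allow on the log2(FPKM + 1) scale. That scale shrinks fold changes of low genes, so the intervals of Nqo1 and Slc7a11 do not bound their fold changes.

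The regulators differed little. Nfe2l2 had 26.1 and 26.1 FPKM in 24-week PEITC prostate, against 27.7 and 27.0 FPKM in 24-week TRAMP control prostate, a log2 difference of -0.06 (95% interval -0.19 to 0.06). At 16 weeks Nfe2l2 had 26.1 and 26.7 FPKM with PEITC and 26.4 and 27.5 FPKM without it (-0.03, -0.16 to 0.10). Keap1 had 31.8 and 32.6 FPKM with PEITC and 34.8 and 34.7 FPKM without it at 24 weeks (-0.11, -0.22 to 0.01), and 33.9 and 34.8 against 33.5 and 33.6 FPKM at 16 weeks (0.03, -0.08 to 0.15).

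The genes usually read as NRF2 targets gave no common direction. For Nqo1, with the values above, the PEITC and control ranges overlapped at both ages, and the log2 difference was -0.12 (95% interval -0.61 to 0.36) at 24 weeks and -0.05 (-0.53 to 0.43) at 16 weeks. Gclc, the catalytic subunit of the enzyme that starts glutathione synthesis, had 22.2 and 22.9 FPKM with PEITC and 23.6 and 19.8 FPKM without it at 24 weeks (0.06, -0.17 to 0.29). At 16 weeks Gclc had 23.5 and 22.8 FPKM with PEITC and 20.8 and 23.8 FPKM without it (0.05, -0.18 to 0.29). These ranges overlapped too.

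Gclm, the modifier subunit of the same enzyme, had 41.9 and 40.9 FPKM in PEITC prostate and 40.1 and 40.2 FPKM in control prostate at 24 weeks (0.04, -0.08 to 0.16). At 16 weeks it had 37.8 and 37.2 FPKM with PEITC, below the 44.6 and 42.2 FPKM without it (-0.20, -0.33 to -0.08; adjusted p = 0.438 by limma). Slc7a11 had 0.566 and 0.549 FPKM with PEITC and 0.403 and 0.407 FPKM without it at 24 weeks (0.15, -0.14 to 0.43), and 0.686 and 0.536 against 0.600 and 0.561 FPKM at 16 weeks (0.03, -0.26 to 0.31). Glutathione reductase, Gsr, had 39.5 and 39.6 FPKM with PEITC and 42.1 and 40.3 FPKM without it at 24 weeks (-0.06, -0.20 to 0.08), and 43.5 and 40.8 against 39.1 and 42.4 FPKM at 16 weeks (0.05, -0.09 to 0.18).

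Thioredoxin reductase 1 (Txnrd1) lay lower in PEITC than in control prostate in both pairs of groups: 36.8 and 37.9 against 39.2 and 39.9 FPKM at 24 weeks (-0.08, -0.21 to 0.04), and 38.1 and 35.5 against 41.4 and 40.7 FPKM at 16 weeks (-0.16, -0.28 to -0.03; adjusted p = 0.438 by limma). Sulfiredoxin (Srxn1), which repairs overoxidized peroxiredoxins, had 12.4 and 11.6 FPKM with PEITC and 13.3 and 14.3 FPKM without it at 24 weeks (-0.19, -0.39 to 0.01), and 13.0 and 13.0 against 14.7 and 12.9 FPKM at 16 weeks (-0.08, -0.28 to 0.12). For both, the difference stayed short of the threshold after adjustment.

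The members with the largest difference at 24 weeks were lower with PEITC. The gastrointestinal glutathione peroxidase Gpx2 had 4.89 and 3.52 FPKM with PEITC, against 17.5 and 7.97 FPKM without it (-1.32, -2.19 to -0.45; adjusted p = 0.465). The aldo-keto reductase Akr1b8 had 5.68 and 6.58 FPKM, against 15.5 and 9.71 FPKM (-0.90, -1.35 to -0.45; adjusted p = 0.465, limma). Heme oxygenase 1 (Hmox1), which degrades heme, had 4.83 and 4.95 FPKM with PEITC and 6.87 and 10.2 FPKM without it (-0.67, -1.24 to -0.11; adjusted p = 0.50, limma), and 3.84 and 5.74 against 6.49 and 3.93 FPKM at 16 weeks, where the groups overlapped (-0.09, -0.65 to 0.48). For Gpx2, Akr1b8 and Hmox1 the 2 control libraries of 24 weeks also lay far from each other. Without TRAMP control replicate 2, the PEITC libraries were set against replicate 0 alone (15.5 FPKM), and Akr1b8 was the 1 member that passed (-1.21, adjusted p = 0.0235, limma). In that fit 160 of all genes passed, against 0 with both controls, and the lone control is assumed to vary like the other groups.

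Malic enzyme 1 (Me1), a source of cytosolic NADPH, was lower with PEITC at both ages without passing. It had 6.96 and 7.98 FPKM with PEITC and 12.2 and 9.39 FPKM without it at 24 weeks (-0.47, -0.85 to -0.09), and 5.19 and 5.96 against 9.72 and 6.97 FPKM at 16 weeks (-0.49, -0.87 to -0.11). The mean over both ages was -0.48 (-0.75 to -0.21), with an unadjusted p of 0.00337 and an adjusted p of 0.735 (limma). Gstt1 had the largest positive difference at 24 weeks, with 177 and 173 FPKM against 125 and 138 FPKM (0.41, 0.07 to 0.75; adjusted p = 0.50, limma), but 147 and 157 against 132 and 176 FPKM at 16 weeks (0.00, -0.34 to 0.34).

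Counted by whether the PEITC and control libraries overlapped, 7 members had both PEITC libraries above both controls at 24 weeks (15.6% of tested members, against 23.7% of all genes) and 16 had both below (35.6%, against 20.8%). At 16 weeks 6 were above (13.3%, against 21.0%) and 13 below (28.9%, against 21.2%). Me1, Txnrd1, Gpx1 and Pgd lay below at both ages and no member lay above at both, which are 4 and 0 of 45, where 2.77% and 3.66% of all genes did.

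**Figure D2:**
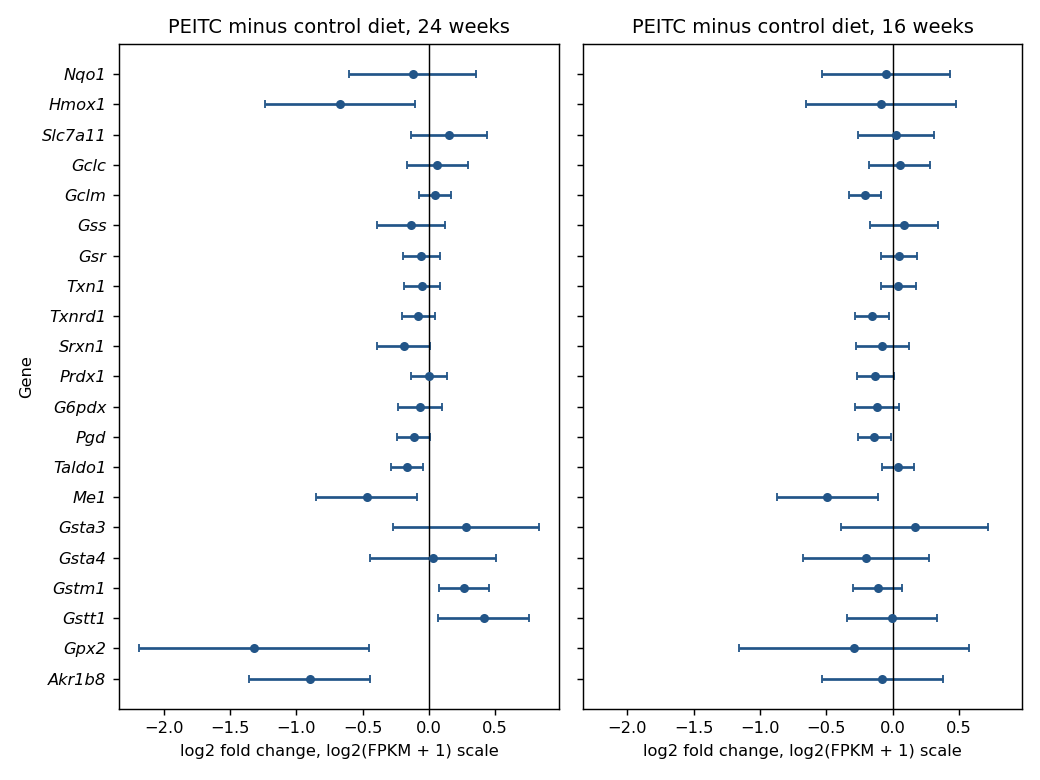
Points give the log2 difference of PEITC minus control diet in TRAMP prostate for 21 members at 24 weeks (left) and 16 weeks (right), on the log2(FPKM + 1) scale, and bars the 95% interval from limma. Most points lie near 0, with the lowest at Gpx2 (-1.32) and Akr1b8 (-0.90) at 24 weeks; none passed the threshold after adjustment.

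The plot of PEITC differences with their intervals shows that margins were wide for Nqo1, Hmox1 and Gpx2 and narrow for Gclm, Gsr and Txnrd1. Among 63 tested genes of the same pathways outside the members (75 of 76 listed were in the files), 0 passed at either age. The same was true of 2 tested AHR targets and 8 ATF4 targets. Among cell type lists, smooth muscle genes summed to 334 to 762 FPKM in the 4 PEITC libraries, against 331 to 412 FPKM in the 4 TRAMP control libraries. The 762 FPKM was in 16-week PEITC replicate 1, and the other PEITC libraries (334, 365 and 393 FPKM) lay within the control range. At 16 weeks basal epithelial genes summed to 60.9 and 55.7 FPKM with PEITC, against 33.9 and 39.1 FPKM without it. At 24 weeks they summed to 39.1 and 37.6 FPKM, against 45.5 and 44.0 FPKM. Macrophage genes summed to 117 to 170 FPKM with PEITC, against 84.2 to 275 FPKM. The highest macrophage sum, 275 FPKM, was in the 24-week control library with the highest Hmox1 value of its group (10.2 FPKM). Its part in the Hmox1 difference was not tested.

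TRAMP and wild type prostate differed in many members. At 24 weeks 28 of 45 tested members passed the threshold on control diet, 10 higher and 18 lower in TRAMP, where 45.0% of all 13375 genes passed (23.0% higher, 22.0% lower). At 16 weeks 22 passed, 5 higher and 17 lower, where 33.6% of all genes passed (18.1% higher, 15.4% lower). The 16-week contrast has 1 wild type library, whose spread is borrowed from the replicated groups. Against the 24-week wild type libraries, 26 members passed for the same 16-week TRAMP libraries, 9 higher and 17 lower, where 42.1% of all genes passed (21.3% higher, 20.7% lower). The 24-week and 16-week contrasts compare different libraries but use the same estimate of spread for each gene, so their calls are not independent. In both, 15 members were lower (Gsta3, Gsta4, Gstm1, Gstm2, Gstm5, Gstm6, Prdx6, Gpx1, Aldh3a1, Ephx1, Abcc4, Ftl1, Fth1, Taldo1 and G6pdx), where 11.6% of all genes were, and 4 were higher (Gstt1, Gsr, Srxn1 and Cat), where 13.7% of all genes were, and none was called in opposite directions. Of the members with the TGACNNNGC core, 4 of 13 were higher and 6 lower at 24 weeks, and of the 24 tested members with a window but no match, 3 were higher and 9 lower. At 16 weeks 1 of 13 with the core was higher and 4 lower, and 3 of 24 without it were higher and 10 lower, so the share called was larger with the core at 24 weeks and smaller at 16 weeks.

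The split between higher and lower depended on the scaling, for the members and for all genes. Scaled to the same sum in every library (TPM), 14 members were higher and 13 lower at 24 weeks, and 11 and 11 at 16 weeks; that scaling moved the median log2 difference of all genes to 0.18 and 0.20, and 76.5% of 6359 and 78.3% of 5411 called genes were then higher, against 51.1% and 54.1% as deposited. When the sum skipped the 50 genes of highest mean, the splits were 14 and 16, and 10 and 14 (medians of all genes 0.09 and 0.12, with 66.6% and 70.3% of called genes higher), and with quantile normalization 13 and 13, and 5 and 13 (45.1% and 52.6% of called genes higher). All 10 higher and 12 of the 18 lower members of 24 weeks passed in the same direction under these 3 scalings, the others being Gpx1, Gpx3, Sod1, G6pdx, Taldo1 and Fth1. At 16 weeks 4 of 5 higher and 9 of 17 lower members did, the others being Srxn1 among the higher and Abcc4, Gstp1, Gstm1, Gstm2, Ftl1, Taldo1, Gpx1 and G6pdx among the lower. Some calls also rested on single libraries. At 24 weeks Cat and Tkt did not pass without either TRAMP control library or without wild type replicate 0, Tkt also without wild type replicate 1, Fth1 without TRAMP control replicate 0 or wild type replicate 0, Sod1 without wild type replicate 0 and G6pdx without wild type replicate 1. At 16 weeks Gstt3, Abcc4 and Gstm1 did not pass without either TRAMP control library, Srxn1 without replicate 0, and Akr1b8, Ftl1 and G6pdx without replicate 1.

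The mRNA of NRF2 was lower in TRAMP prostate at 24 weeks, and NRF2 protein was not measured. Nfe2l2 had 27.7 and 27.0 FPKM in TRAMP control prostate, against 40.1 and 37.4 FPKM in wild type prostate (log2 difference -0.49 ± 0.06 SE, adjusted p = 0.000346 by limma). At 16 weeks it had 26.4 and 27.5 FPKM, against 30.7 FPKM (-0.18, adjusted p = 0.075, limma). Nfe2l2 passed at 16 weeks when the 24-week wild type libraries were the control (-0.51, adjusted p = 0.000294, limma). All 8 TRAMP prostates (26.1 to 27.7 FPKM) lay below all 3 wild type libraries. Keap1 did not pass at either age (33.5 to 34.8 FPKM in the 4 TRAMP control libraries, 30.5 to 34.0 FPKM in wild type).

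The glutathione transferases join glutathione to electrophiles. Of 13 tested, 1 was higher and 6 lower at 24 weeks (53.8%, near the 45.0% of all genes), and 2 were higher and 7 lower at 16 weeks (69.2%, against 33.6%). Gsta3 and Aldh3a1 had the largest differences among the members, Gsta3 with a pseudocount of 1 and Aldh3a1 with one of 0.1 (-3.48 for Gsta3 and -4.14 for Aldh3a1 at 24 weeks). Gsta3 had 1.24 and 2.52 FPKM in 24-week TRAMP control prostate, against 24.7 and 17.7 FPKM in 24-week wild type prostate (-2.96 ± 0.24 SE, adjusted p = 7.04e-05, limma). At 16 weeks it had 2.496 and 1.954 FPKM, against 22.0 FPKM (-2.84 ± 0.29 SE, adjusted p = 0.000435, limma). The 8 TRAMP prostates, PEITC included, lay between 1.24 and 2.83 FPKM and the 3 wild type libraries between 17.7 and 24.7 FPKM.

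Gstt1 went the other way. It had 125 and 138 FPKM in 24-week TRAMP control prostate, against 69.8 and 55.3 FPKM in wild type (1.07 ± 0.15 SE, adjusted p = 0.000867, limma), and 132 and 176 FPKM at 16 weeks, against 48.6 FPKM (1.63 ± 0.18 SE, adjusted p = 0.000599, limma). Its neighbors on chromosome 10, Gstt2 and Gstt3, did not share that size: Gstt2 differed by -0.10 and 0.10 at 24 and 16 weeks and passed at neither, and Gstt3 by -0.04 and 0.31, passing at 16 weeks only (adjusted p = 0.0412, limma) and not against the 24-week wild type libraries.

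The alpha class member Gsta4, which prefers the lipid aldehyde 4-hydroxynonenal, had 22.3 and 32.3 FPKM in TRAMP control prostate and 54.9 and 43.3 FPKM in wild type at 24 weeks (-0.84 ± 0.21 SE, adjusted p = 0.0127, limma), and 26.0 and 18.0 against 49.0 FPKM at 16 weeks (-1.14 ± 0.25 SE, adjusted p = 0.0111, limma). Without TRAMP control replicate 0 or wild type replicate 0 of 24 weeks, Gsta4 did not pass at 24 weeks. Gstm6 had 6.98 and 5.09 FPKM against 9.924 and 10.95 FPKM at 24 weeks (-0.71), and 5.04 and 5.58 against 13.0 FPKM at 16 weeks (-1.15 ± 0.16 SE, adjusted p = 0.00139, limma).

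The 7 mu class genes Gstm1 to Gstm7 lie side by side on chromosome 3. Gstm1, Gstm2, Gstm5 and Gstm6 were lower at both ages, with log2 differences of -0.45 to -0.71 at 24 weeks and -0.36 to -1.15 at 16 weeks, Gstm4 (-0.02 and -0.23) and Gstm7 (-0.44 and -0.42) did not pass, and Gstm3 was not tested. Members of this family resemble one another, so reads may have been split between them and their separate values are uncertain. The transferases together made up 0.223% to 0.260% of all FPKM in the 8 TRAMP prostates and 0.217% to 0.235% in wild type, ranges that overlap. These shares are on another scale than the calls, which used FPKM as deposited. All FPKM summed to 395678 to 410802 in the 8 TRAMP prostates and 458256 to 467650 in wild type.

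Of the 3 aldehyde and epoxide enzymes, Aldh3a1 and Ephx1 were lower at both ages and Akr1b8 at 16 weeks only. Aldh3a1, an aldehyde dehydrogenase, had 0.181 and 0.439 FPKM in 24-week TRAMP control prostate, against 8.61 and 5.30 FPKM in wild type (-2.58 ± 0.20 SE, adjusted p = 6.39e-05, limma), and 0.176 and 0.304 FPKM at 16 weeks, against 4.45 FPKM (-2.14 ± 0.25 SE, adjusted p = 0.000745, limma). The 8 TRAMP prostates lay between 0.176 and 0.573 FPKM and the 3 wild type libraries between 4.45 and 8.61 FPKM. The microsomal epoxide hydrolase Ephx1 had 84.1 and 73.2 FPKM against 173 and 182 FPKM at 24 weeks (-1.17 ± 0.08 SE, adjusted p = 3.99e-05, limma), and 75.9 and 82.5 against 163 FPKM at 16 weeks (-1.03 ± 0.10 SE, adjusted p = 0.000367, limma). Both groups of values stood well apart. Akr1b8 passed at 16 weeks (-0.90, adjusted p = 0.0235, limma) but not against the 24-week wild type libraries. At 24 weeks it had 15.5 and 9.71 FPKM against 9.89 and 10.5 FPKM (0.25, adjusted p = 0.338, limma), and without TRAMP control replicate 2 it passed as higher (0.56, adjusted p = 0.0294, limma).

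**Figure D3:**
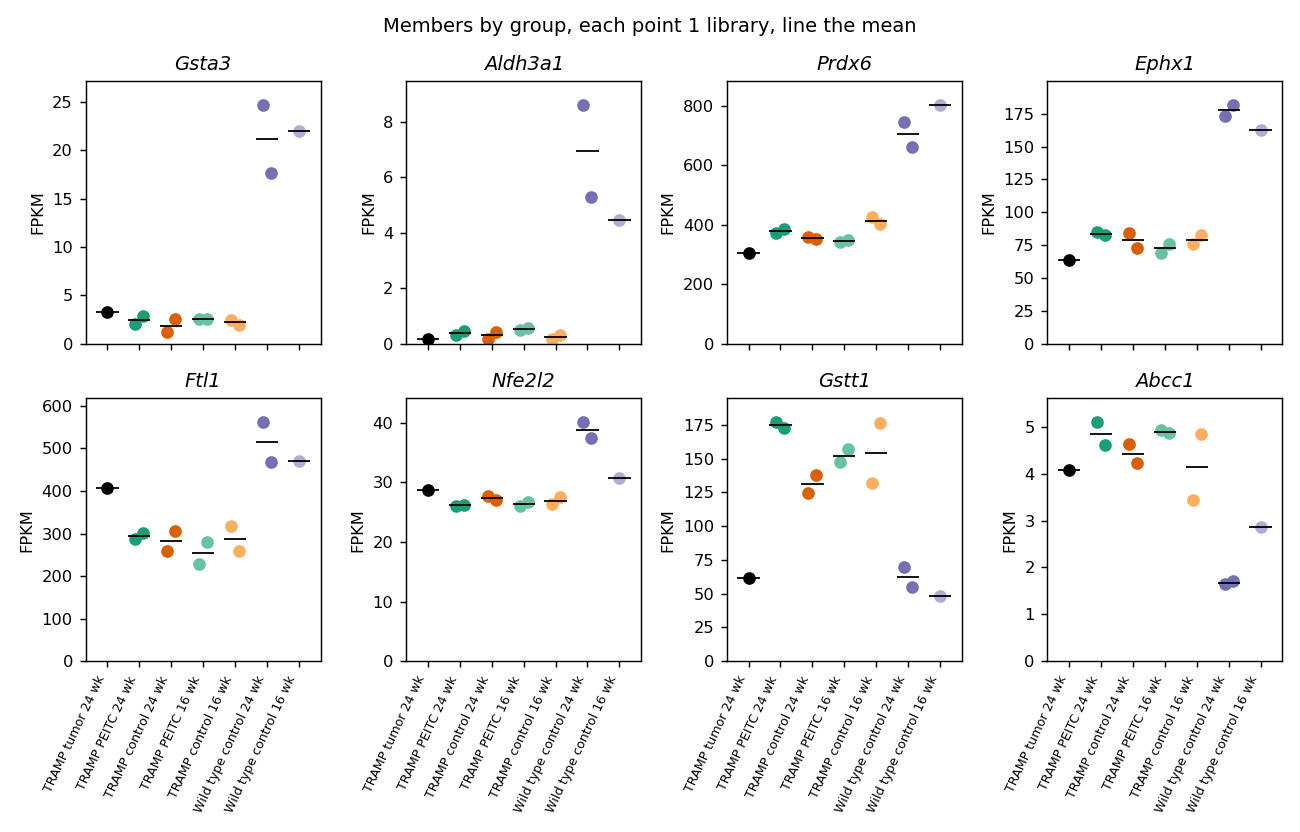
FPKM of 8 members by group, each point 1 library and each line the group mean, on axes that start at 0. Gsta3, Aldh3a1, Prdx6, Ephx1, Ftl1 and Nfe2l2 lie lower in the 8 TRAMP prostates than in the 3 wild type libraries, and Gstt1 and Abcc1 higher, with no overlap.

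In the plot of 8 members by group, Gsta3, Aldh3a1, Prdx6 and Ephx1 lie well below wild type at both ages, while the gap of Abcc1 at 16 weeks is narrow (3.43 to 4.94 FPKM in the 4 TRAMP libraries, against 2.86 FPKM). Over all members, 6 had all 8 TRAMP prostates above all 3 wild type libraries (13.3% of those tested, against 23.0% of all genes) and 19 had all 8 below (42.2%, against 21.3%). The 6 were Gstt1, Gsr, Srxn1, Cat, Tkt and Abcc1.

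Both ferritin chains, which store iron, and the peroxidases Prdx6 and Gpx1 were lower at both ages, while Prdx1 (-0.04 and -0.07) and Gpx4 (-0.09 and -0.19) did not pass. Ftl1 had 259 and 307 FPKM in TRAMP control prostate and 562 and 469 FPKM in wild type at 24 weeks (-0.86 ± 0.15 SE, adjusted p = 0.00248, limma), and 317 and 259 against 472 FPKM at 16 weeks (-0.72, adjusted p = 0.0188, limma). Fth1 differed by -0.34 and -0.77. Prdx6 had 360 and 351 FPKM against 744 and 662 FPKM at 24 weeks (-0.98 ± 0.07 SE, adjusted p = 4.45e-05, limma), and 426 and 401 against 802 FPKM at 16 weeks (-0.96). Gpx1 was lower at both ages (-0.34 and -0.38) and Sod1 at 24 weeks (-0.40). Ftl1, Fth1 and Prdx1 have many processed copies in the genome, which makes their values less certain.

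The secreted peroxidase Gpx3 had 35.3 and 83.1 FPKM in TRAMP control prostate and 181 and 93.2 FPKM in wild type at 24 weeks (-1.24 ± 0.44 SE, adjusted p = 0.0484, limma). Its wide spread within groups left that call dependent on single libraries: without TRAMP control replicate 0 or without wild type replicate 0 it did not pass. Catalase (Cat), which breaks down hydrogen peroxide, was slightly higher, with 51.6 and 51.5 FPKM against 41.8 and 46.8 FPKM at 24 weeks (0.22) and 60.1 and 59.5 against 44.7 FPKM at 16 weeks (0.41).

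Of the 5 genes of glutathione synthesis and recycling, 2 were higher at 24 weeks (Gsr and Gclm) and 1 at 16 weeks (Gsr), and of the 5 thioredoxin and peroxiredoxin genes, 2 were higher at 24 weeks (Srxn1 and Txnrd1) and 1 at 16 weeks (Srxn1). Gsr had 42.1 and 40.3 FPKM in TRAMP control prostate and 31.0 and 30.9 FPKM in wild type at 24 weeks (0.40 ± 0.06 SE, adjusted p = 0.00129, limma), and 39.1 and 42.4 against 32.0 FPKM at 16 weeks (0.34, adjusted p = 0.00965, limma). Srxn1 had 13.3 and 14.3 FPKM against 10.5 and 9.45 FPKM at 24 weeks (0.43 ± 0.09 SE, adjusted p = 0.00491, limma), and 14.7 and 12.9 against 10.2 FPKM at 16 weeks (0.40, adjusted p = 0.0225, limma). Txnrd1 passed at 24 weeks by a small margin (39.2 and 39.9 against 34.7 and 36.1 FPKM; 0.16, adjusted p = 0.0468, limma) and Gclm likewise (40.1 and 40.2 against 34.3 and 36.1 FPKM; 0.19, adjusted p = 0.0215, limma). Without any 1 of the 4 libraries compared, Txnrd1 did not pass, and Gclm did not pass without either TRAMP control library or without wild type replicate 0.

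Gclc, Nqo1 and Slc7a11 did not pass at either age. Gclc had 23.6 and 19.8 FPKM in TRAMP control prostate and 22.1 and 24.7 FPKM in wild type at 24 weeks (-0.11), and 20.8 and 23.8 against 24.4 FPKM at 16 weeks (-0.13). Nqo1 differed by -0.07 at 24 weeks, where the groups overlapped, and by -0.54 at 16 weeks, where both TRAMP libraries lay below the wild type one. Slc7a11 had 0.403 and 0.407 FPKM in TRAMP control and 0.517 and 0.791 FPKM in wild type prostate at 24 weeks (-0.23, adjusted p = 0.165, limma), and 0.600 and 0.561 against 0.635 FPKM at 16 weeks (-0.05). Its TRAMP control libraries lay below wild type at both ages without passing.

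Some members passed at 24 weeks only. Me1 had 12.2 and 9.39 FPKM in TRAMP control prostate and 3.82 and 3.96 FPKM in wild type (1.26 ± 0.16 SE, adjusted p = 0.000666, limma), but 9.72 and 6.97 against 6.98 FPKM at 16 weeks (0.21, adjusted p = 0.447, limma). Abcc1, a pump for glutathione conjugates, had 4.63 and 4.24 FPKM against 1.64 and 1.72 FPKM (1.02 ± 0.13 SE, adjusted p = 0.000679, limma), and 3.43 and 4.84 against 2.86 FPKM at 16 weeks (0.40, adjusted p = 0.0977, limma). Both differences passed at 16 weeks when the 24-week wild type libraries were the control (Me1 0.92, adjusted p = 0.00313; Abcc1 0.93, adjusted p = 0.00112, limma).

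Hmox1 had 6.87 and 10.2 FPKM against 3.87 and 3.66 FPKM at 24 weeks (0.98 ± 0.24 SE, adjusted p = 0.0134, limma) and 6.49 and 3.93 against 4.22 FPKM at 16 weeks (0.22). The Hmox1 call was lost without TRAMP control replicate 2 or wild type replicate 1. Macrophages are a known site of Hmox1 expression, and the 7 macrophage genes summed to 137 and 275 FPKM in these TRAMP control libraries, against 57.0 and 52.3 FPKM in wild type. Their part in the result was not tested.

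**Figure D4:**
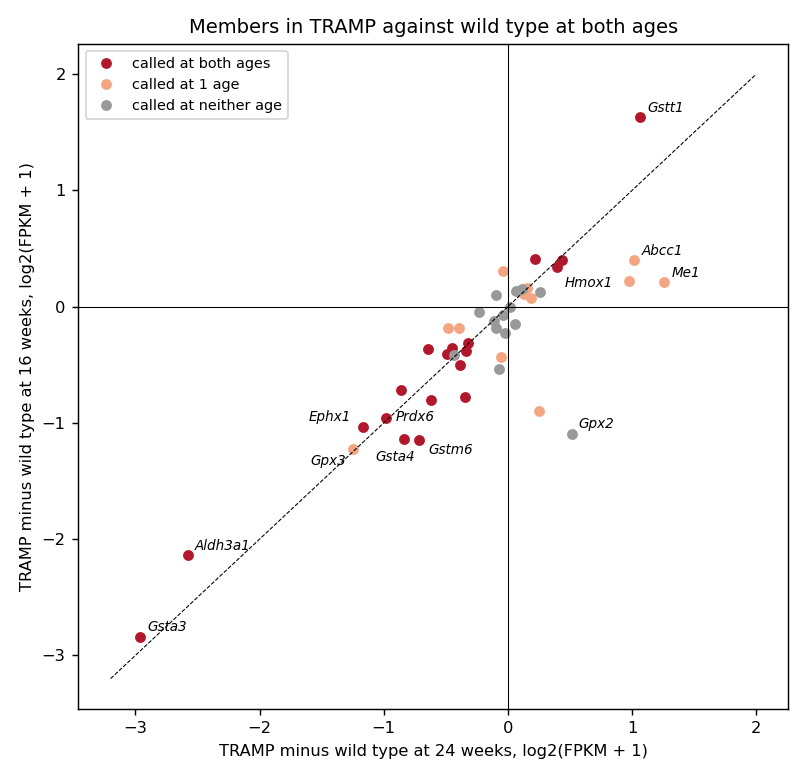
Each point is 1 of the 45 tested members, with the log2 difference of TRAMP minus wild type prostate on control diet at 24 weeks on the x axis and at 16 weeks on the y axis; the dashed line marks equal values. Gsta3 and Aldh3a1 lie at the lower left and Gstt1 at the upper right at both ages, while Me1, Abcc1 and Hmox1 lie near 1 on the x axis and below 0.5 on the y axis.

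The plot of both ages raises the question of whether the TRAMP difference itself changed with age. For the difference between the contrasts, 0 of 45 members passed (background 0.366%, 49 genes, with 0.329% higher and 0.0374% lower). Between 24-week and 16-week TRAMP prostate on control diet, 0 members passed (background 0.00748%). For Me1 the TRAMP difference was larger at 24 weeks by 1.05 ± 0.26 SE (adjusted p = 0.158, limma), and for Akr1b8 by 1.15 ± 0.31 SE (adjusted p = 0.182, limma). Without TRAMP control replicate 2 of 24 weeks, Akr1b8 passed in both tests (1.46, adjusted p = 0.0471, and 1.03, adjusted p = 0.0265, limma), where 82 and 260 of all genes passed, against 49 and 1 with that library. So calls at 24 weeks alone were not shown to differ from 16 weeks.

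Summed marker mRNA differed between TRAMP and wild type prostate for several lists, while the luminal sums overlapped. Besides the secretory list, 6 basal epithelial genes summed to 33.9 to 60.9 FPKM in the 8 TRAMP prostates, against 117 to 147 FPKM in wild type, 8 smooth muscle genes to 331 to 762 FPKM, against 875 to 1044 FPKM, and 6 proliferation genes to 263 to 354 FPKM, against 51.1 to 74.6 FPKM. Neither the part of these shifts in the member differences nor that of any single cell type was tested. In bulk tissue, fewer cells of a type and less RNA per cell cannot be told apart.

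The tumor library differed from 24-week TRAMP control prostate in 12 of 45 members, 6 higher and 6 lower, where 11.8% of all genes passed (5.59% higher, 6.17% lower). The tumor is 1 library, so its spread is taken from the replicated groups. A fit with only the tumor and its 2 controls had 1 residual degree of freedom and called 0 of 45 members and 0 of all genes. The 3 higher members with the largest differences were Gpx2, Me1 and Akr1b8, each above all 11 other libraries. Gpx2 had 47.4 FPKM in the tumor, against 17.5 and 7.97 FPKM in 24-week TRAMP control prostate (1.91 ± 0.46 SE, adjusted p = 0.0357, limma), and at most 14.7 FPKM in wild type. Me1 had 29.5 FPKM, against 12.2 and 9.39 FPKM (1.38 ± 0.20 SE, adjusted p = 0.00763, limma). Akr1b8 had 26.4 FPKM, against 15.5 and 9.71 FPKM (1.05 ± 0.24 SE, adjusted p = 0.0309, limma). In each, the tumor was highest and the control library with the higher value was replicate 0. Without TRAMP control replicate 2, Gpx2 did not pass, and without the filter on low values neither Gpx2 nor Akr1b8 did. When the replicate number was added to the fit (a replicate block), only Gstt3 and Gclc of the 12 members kept their call.

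Txnrd1 was 52.3 FPKM in the tumor, against 39.2 and 39.9 FPKM (0.39 ± 0.07 SE, adjusted p = 0.0119, limma), and Prdx1, a thiol peroxidase, 301 FPKM, against 231 and 227 FPKM (0.39 ± 0.07 SE, adjusted p = 0.0162, limma). Gsr was 49.95 FPKM, against 42.1 and 40.3 FPKM, and passed narrowly (0.27, adjusted p = 0.0499, limma), but not with either control library left out.

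Of the 13 tested transferases, the longest of the role lists, 5 were lower and 0 higher (38.5%, against 6.17% of all genes lower). Gstt1 had 61.5 FPKM in the tumor, against 125 and 138 FPKM in TRAMP control prostate (-1.08 ± 0.18 SE, adjusted p = 0.0115, limma), a level within the wild type range of 48.6 to 69.8 FPKM. Gstt2 (18.9 FPKM, against 30.2 and 29.6 FPKM; -0.64) and Gstt3 (150 FPKM, against 241 and 230 FPKM; -0.65) were lower too. Gstm7 had 4.70 FPKM, against 9.35 and 13.6 FPKM (-1.11 ± 0.21 SE, adjusted p = 0.0164, limma), and Gstm2 90.1 FPKM, against 120 and 135 FPKM (-0.49). The transferases made up 0.171% of all FPKM in the tumor, below every other library (0.217% to 0.260%).

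Gclc was the other lower member, with 12.6 FPKM in the tumor, against 23.6 and 19.8 FPKM (-0.73 ± 0.12 SE, adjusted p = 0.0115, limma), while its partner Gclm had 46.7 FPKM, against 40.1 and 40.2 FPKM (0.21, adjusted p = 0.0726, limma). The 11 other libraries held Gclc between 19.8 and 24.7 FPKM. Nfe2l2 (28.7 FPKM; 0.07), Keap1 (32.6 FPKM; -0.09), Nqo1 (0.721 FPKM; 0.21), Slc7a11 (0.422 FPKM; 0.02), Hmox1 (11.3 FPKM; 0.39) and Srxn1 (17.9 FPKM; 0.36, adjusted p = 0.0694, limma) did not pass.

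**Figure D5:**
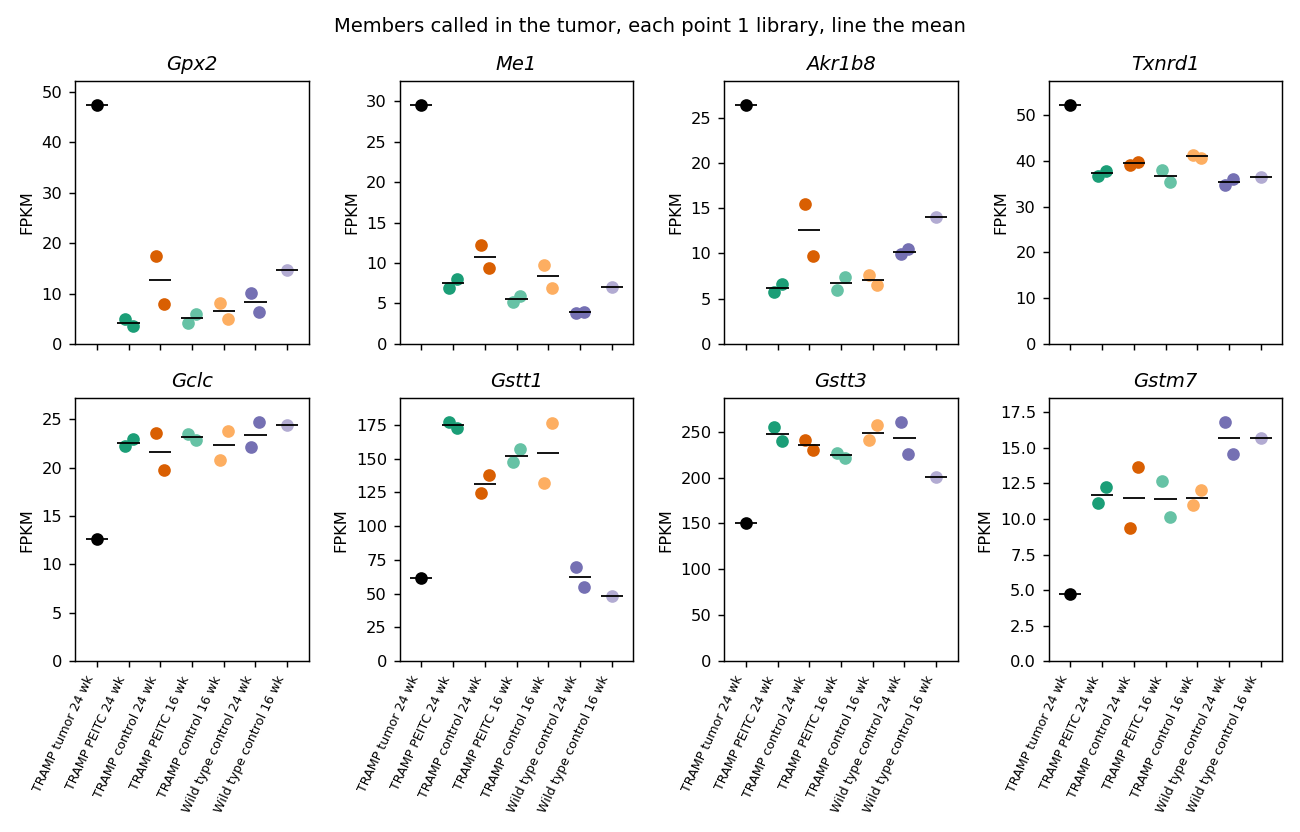
FPKM of 8 members called in the tumor by group, each point 1 library and each line the group mean, on axes that start at 0. The tumor is highest for Gpx2, Me1, Akr1b8 and Txnrd1, lowest for Gclc, Gstt3 and Gstm7, and level with wild type for Gstt1.

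The plot of members called in the tumor sets it beside all 11 other libraries. Against the 8 TRAMP prostates alone, 18 members were above all (40% of those tested, against 25.4% of all genes) and 12 below all (26.7%, against 30.1%). Several members that were lower in TRAMP than in wild type prostate lay below all 3 wild type libraries in the tumor too: Gsta3 had 3.25 FPKM, Aldh3a1 0.181 FPKM, Ephx1 64.1 FPKM and Prdx6 304 FPKM. The ferritin chains were at 407 FPKM (Ftl1) and 418 FPKM (Fth1), above all 8 TRAMP prostates, but neither passed against the 24-week controls. The 5 endothelial genes summed to 22.7 FPKM in the tumor and 3.82 to 10.1 FPKM in the 8 TRAMP prostates, and macrophage genes to 224 FPKM and 84.2 to 275 FPKM; their part in the result was not tested.

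Other genes of the same pathways were taken from a list of 76 names. At 24 weeks 32 of 63 tested (50.8%) passed between TRAMP and wild type prostate, 14 higher and 18 lower, and at 16 weeks 21 (33.3%), 7 higher and 14 lower, shares near those of all genes (45.0% and 33.6%). Prdx4, the peroxiredoxin of the endoplasmic reticulum, had 133 and 154 FPKM in 24-week TRAMP control prostate, against 43.6 and 49.4 FPKM in wild type (1.61 ± 0.12 SE, adjusted p = 5.08e-05, limma), and 172 and 213 against 55.2 FPKM at 16 weeks (1.78). Gpx8, a peroxidase of the same compartment, had 15.3 and 19.9 FPKM against 61.6 and 70.0 FPKM (-1.85 ± 0.16 SE, adjusted p = 0.000105, limma), and 28.8 and 34.9 against 78.3 FPKM at 16 weeks (-1.28). Prdx4 and Gpx8 thus moved in opposite directions.

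The retinaldehyde dehydrogenase Aldh1a1 was lower at 24 and 16 weeks (-1.58 and -1.39), and the microsomal transferase Mgst1 was higher at 24 weeks (1.12, adjusted p = 0.0348, limma). Of the regulators, Bach1, a repressor that competes for the same DNA element, was higher (0.59 and 0.55), the NRF2 relative Nfe2l3 was lower (-0.73 and -0.88), Sqstm1, which can bind KEAP1, was lower (-0.35 and -0.26), and Cul3, of the ligase that KEAP1 serves, was higher at 16 weeks (0.26). In the tumor 8 of 63 passed (12.7%), 4 higher and 4 lower, led by the small MAF gene Maff (9.67 FPKM, against 3.97 and 3.76 FPKM in TRAMP control prostate; 1.13, adjusted p = 0.0391, limma) and by Aldh7a1 (-0.92, adjusted p = 0.00406, limma). Of the 2 tested AHR targets only Tiparp passed, at 16 weeks between TRAMP and wild type (0.60). Of 8 ATF4 targets, 2 were higher and 2 lower at 24 weeks, 1 was lower at 16 weeks, and 2 were higher and 1 lower in the tumor.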

How the data were processed

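The deposited values are FPKM, made by the authors; HISAT2, Picard, featureCounts and DESeq2 and the mm10 genome are named per the submitters' processing notes, without versions. The sources used here do not give the annotation or the library total. FPKM were turned into log2(FPKM + 1), and 13375 genes averaging 0.5 FPKM or more were tested with limma 3.58.1 (R 4.3.3): 7 group means, 5 residual degrees of freedom, eBayes with a trend on intensity, two-sided tests, Benjamini-Hochberg adjustment over all genes, called under 0.05. Fold changes are on that log2 scale, which understates changes of low genes. Intervals on fragments cover counting error only. Values are given per library for 10 core members and for members called with a log2 difference of at least 1 in TRAMP or tumor comparisons. The members, the other lists and the tests were chosen with earlier results of these data known. Gene positions came from GENCODE, promoters from RefSeq. The scripts' fit was tested on simulated data. Figures used Python 3.11.15 and matplotlib 3.10.9.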

Additional observations from a re-analysis of the deposited data

How the results depend on the processing

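Other settings were pseudocounts of 0.1 and 5, no filter or a mean of at least 2 FPKM, 3 scalings, no intensity trend, only the groups compared, a replicate block and each library left out. PEITC calls stayed at 0 under these at 16 weeks and for the mean of both ages. Leaving out a library gave 0 to 1 member (0 to 160 of all genes) for PEITC at 24 weeks, 20 to 25 (4200 to 4950) for TRAMP at 24 weeks, 16 to 19 (3615 to 3655) for TRAMP at 16 weeks, 0 (0 to 124) for the difference between PEITC effects, 0 to 1 (33 to 82) for the difference between TRAMP effects, 0 to 1 (1 to 260) for age and 11 to 12 (1050 to 1217) for the tumor. With only the groups compared, 12 members (2198 of all genes, against 4490) passed for TRAMP at 16 weeks and 0 (0 of all genes, against 1573) for the tumor. With the replicate block, 1 member (Gsto1, with 49 of all genes, against 1) passed for the difference between PEITC effects. For age 1 passed as well (Gsto1, with 99 of all genes, against 1). For the tumor 4 passed (668 of all genes, against 1573). Gstt3 and Gclc kept their tumor calls, the other members called in the main fit lost theirs, and Gsto1 and Gstm6 were called only with other settings. The tumor's label holds no replicate number, and the block counted it as replicate 1. In the groups that held replicates 0 and 1, same-numbered libraries showed no strong shared deviation (correlations of -0.31 to 0.28 between groups). These correlations cannot show whether the numbers pair samples, and they do not cover 24-week TRAMP control. Some directions turned: Prdx1 at 24 weeks in TRAMP was -0.04, but 0.19 with quantile normalization, and Gsto1 was 0.02, but -0.36 with the block. The cause was not tested. Depth limits Nqo1, Gstm3 and, outside wild type prostate, Aldh3a1 (7 to 27 fragments), and it limits Slc7a11 less (87 to 164 fragments).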
